A study of Drosophila melanogaster with 21 samples.

Results

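A short knockdown of Pumilio by RNA interference (RNAi) was set beside a lasting knockout of its gene, pum, in the same Drosophila melanogaster cell line, gene by gene. The knockdown and knockout tables were joined by FlyBase gene ID, and a gene was kept where its mean normalized count was at least 50 in both tables, which left 5852 of 17555 genes. For each gene, the log2 ratio of Pum RNAi over its control was set beside the mean of the log2 ratios of 2 knockout clones over the wild type. Of the genes left out, 35 reached the minimum only in the knockdown table and 529 only in the knockout table. Just outside the minimum lay mRRF2, with 49.9 and 81.1 normalized counts, and just inside it GstD9, with 50.1 and 69.6.

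DL1 is a cultured line of embryonic origin. In the knockdown experiment wild-type DL1 cells received 20 µg of double-stranded RNA for 60 min, against pum (Pum RNAi) or against the bacterial gene LacZ (LacZ RNAi, the control), and were collected 48 h later, with 3 samples in each group. In the knockout experiment 3 samples of each of 2 clonal isolates carrying a knockout of pum (clone 1 and clone 2) were compared with 3 samples of the parental line (WT), which received no double-stranded RNA according to the labels. The 15 samples belong to a series of 21. Each clone is 1 isolate, so the spread among its samples holds no difference between isolates, and a change in both clones can still be a feature of the isolates. Poly(A)-selected RNA was read by ClickSeq, an RNA-seq method in which cDNA ends are made by chain-stopping nucleotides and joined to an adapter by click chemistry. The tables were normalized separately, so changes were taken within each table, and levels in one table are not on the scale of the other. In such bulk samples fewer cells of a type and less RNA per cell cannot be told apart.

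Pumilio belongs to the PUF family of RNA-binding proteins, which recognise short elements in the 3' untranslated regions of mRNAs. It is known to repress its targets by recruiting the CCR4-NOT deadenylase and by acting against the poly(A)-binding protein, which lowers mRNA stability and translation. In flies it is best known from embryonic patterning, germline stem cells and neuronal excitability, where it often acts with Nanos or Brat.

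The deposited group means could be resolved into single libraries for 5684 of the 5852 genes. Libraries of a group are named A, B and C from the largest to the smallest size factor, because no label ties them to a sample. Reads in resolved genes ran from 2395878 (LacZ RNAi library C) to 9341878 (clone 1 library A). LacZ RNAi library C stood apart from its group: it correlated across genes at 0.896 and 0.887 with libraries A and B, against 0.992 between those 2 and at least 0.991 within every other group. In it 56 ribosomal protein genes lay 1.58 above the mean of the other 2 on the log2 scale. The main counts of knockdown calls, and those per gene list, are therefore given with and without that library. The genes described at length have their change by limma, a linear model fitted across all genes, without it. Of 16 hemocyte markers, 6 had a mean of at least 50 in both tables, among them srp, the GATA factor of blood cells, and the phagocytic receptor gene eater, while NimC1 stayed at or below 19.1 in all 5 groups.

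The targeted gene fell in all 3 comparisons, and its fall in the clones was unequal. pum (FBgn0003165, chromosome 3R, 9066343 to 9237682, minus strand, dm6) held 1665, 1421 and 2178 normalized counts in LacZ RNAi libraries A, B and C and 533, 525 and 569.6 in Pum RNAi. In WT it held 3129, 3139 and 2820.4, in clone 1 it held 1064, 969 and 1074, and in clone 2 it held 2186, 2087 and 2093. No library of a depleted group overlapped its control. The fitted falls in the authors' deposited table were 3.23-fold after RNAi (log2 -1.69 ± 0.39, standard error, SE, adjusted p = 0.00575), 2.93-fold for clone 1 (log2 -1.55 ± 0.07, adjusted p = 5.78e-103) and 1.43-fold in clone 2 (log2 -0.51 ± 0.07, adjusted p = 1.47e-12). Without LacZ RNAi library C limma gave a fall after RNAi of -1.50 (log2, adjusted p = 7.3e-08). No label or table says which stretch of pum was removed, so the reads left in the clones check nothing about the knockout itself.

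Few genes moved in the knockdown and many in the knockout. A gene is called moved in Pum RNAi where the authors' adjusted p was below 0.05, and moved in the knockout where it was below 0.05 in both clones in the same direction. In Pum RNAi 57 of 5838 genes tested were called (0.976%), 40 higher (0.685%) and 17 lower (0.291%). In both clones 2906 of 5852 genes were called in the same direction (49.7%), 1542 higher (26.3%) and 1364 lower (23.3%), and a further 58 were called in opposite directions in the clones. Clone 1 alone had 3726 calls (63.7%) and clone 2 alone had 3468 (59.3%). The spread of the changes differed too, with a standard deviation over genes of 0.35 (log2) for the knockdown, 0.26 for the knockdown without LacZ RNAi library C, and 0.72 for the clone mean.

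**Figure D1:**
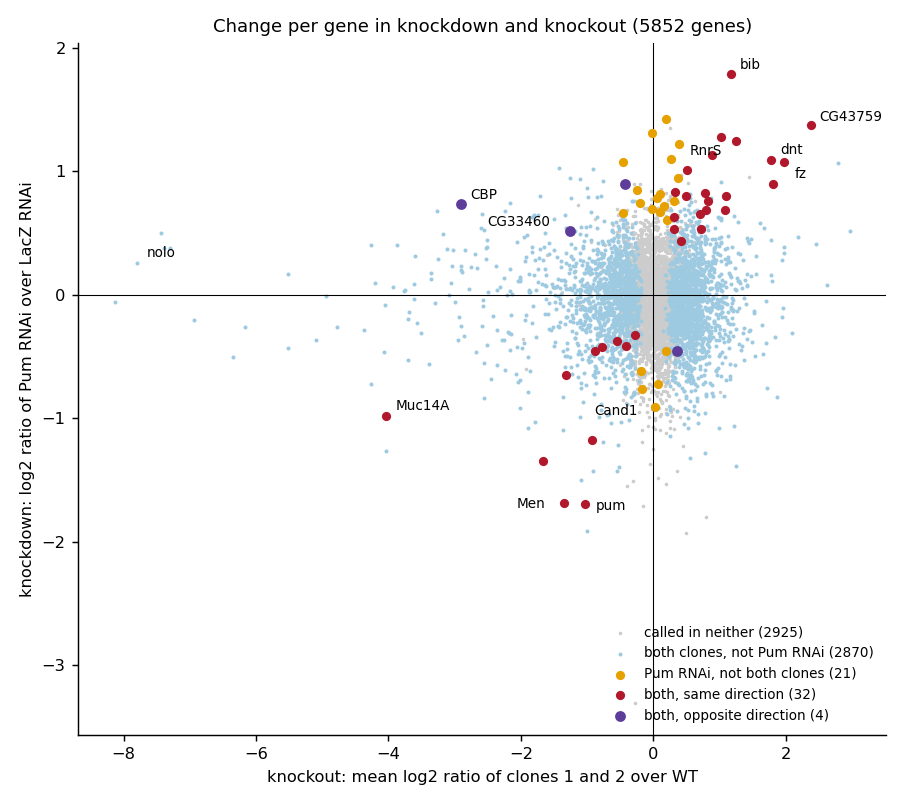
Each point is 1 of 5852 genes, with the mean log2 ratio of clones 1 and 2 over WT on the horizontal axis and the log2 ratio of Pum RNAi over LacZ RNAi on the vertical axis, coloured by where the gene was called. The cloud is wide along the knockout axis and shows no slope, while the 32 genes called in both experiments in the same direction (red) lie in the upper right and lower left and the 4 called in opposite directions (purple) in the upper left and lower right.

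Of the 57 genes called in Pum RNAi, 32 were also called in both clones in the same direction (0.547% of all genes), 21 of them higher and 11 lower. A further 4 were called in both clones in the opposite direction, and 21 were not called in both clones. The knockout was called for many genes, and these counts are read against that background. Among the 40 genes that rose after RNAi, 21 (52.5%) rose and 3 (7.5%) fell in both clones, whereas among the 5795 genes not called after RNAi 26.2% rose and 23.3% fell. Among the 17 genes that fell after RNAi, 11 (64.7%) fell and 1 (5.88%) rose in both clones. The 17 and the 11 include pum, the gene targeted in both experiments. The comparisons of knockdown and knockout share no sample.

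The same reading was made with the larger set of knockdown calls that limma gave without LacZ RNAi library C. It called 898 of 5735 resolved genes (15.7%), 394 higher (6.87%) and 504 lower (8.79%). Among them, in the same direction, were 53 of the 53 resolved genes called by the authors' test. The fit used the same libraries apart from library C, so neither this agreement nor the larger set is an independent check. With all libraries limma called 0 genes, 520 at an unadjusted p below 0.05. Of the 394 higher genes 159 (40.4%) rose and 59 fell in both clones. Of the 504 lower genes 179 (35.5%) fell and 105 (20.8%) rose in both clones. Among the 4837 genes not called, 25.3% rose and 22.8% fell.

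**Figure D2:**
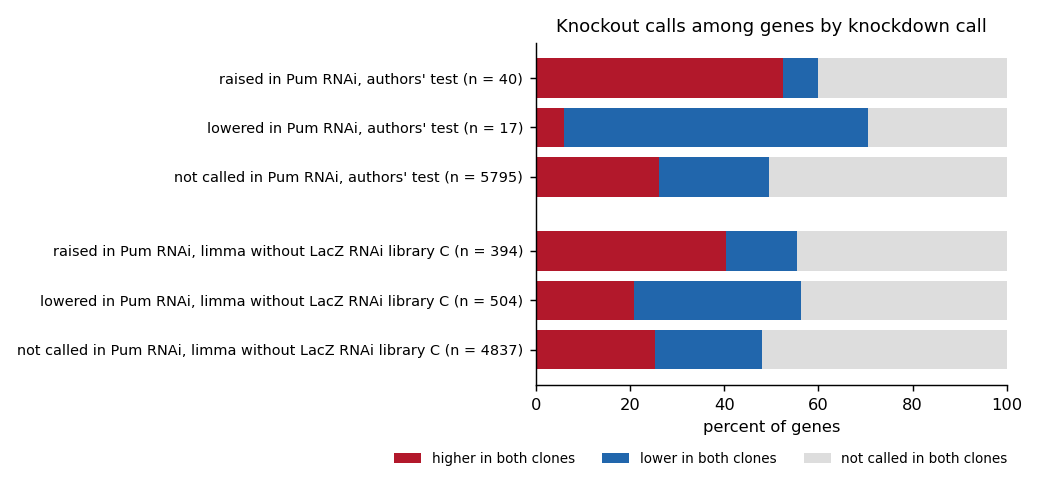
Bars give the percent of genes called higher in both clones (red), lower in both clones (blue) or not called in both clones in 1 direction (grey), for genes raised, lowered or not called in Pum RNAi by the authors' test and by limma without LacZ RNAi library C. The red share is 52.5% among the 40 raised genes and the blue share 64.7% among the 17 lowered genes (the targeted pum included), against 26.2% and 23.3% among the genes not called.

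Across all 5852 genes the 2 sets of changes were nearly unrelated, with Pearson's r = 0.0116 and Spearman's rho = -0.0099, given as a description because genes are not independent replicates. Without LacZ RNAi library C, r was 0.169 and rho 0.175 over 5735 genes, and with all libraries r was 0.0139 over the same genes. Set against LacZ RNAi library A alone the r was 0.128, against library B alone 0.185, and against library C alone -0.0831. Without library C the r was 0.213 for genes with a mean of 50 to 200 normalized counts in the knockdown table, 0.170 for 200 to 1000 and 0.0963 for 1000 or more. All values of a table share its libraries, and counting error widens the changes of low genes.

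Genes that rose in both experiments included receptors and regulators of Notch and Wnt signalling. bib (chromosome 2L, 9984645 to 9995538), an aquaporin-family membrane protein of the neurogenic group, had the largest rise after RNAi among the 21. It held 45.3, 51.5 and 19.5 normalized counts in LacZ RNAi and 159, 132 and 111 in Pum RNAi. Its values were 241, 212 and 177 in WT, 505, 442 and 569.8 in clone 1 and 545, 426 and 366 in clone 2. All libraries of the depleted groups lay above those of their controls. bib and the other called genes were chosen by tests on the same libraries, so such separation adds little to their calls. Over all resolved genes 23.3% had no overlap in the knockdown, 69.7% in clone 1 and 69.2% in clone 2. The authors' deposited table gave bib a rise of 3.27-fold after RNAi (log2 1.71 ± 0.27, adjusted p = 6e-07) and of 2.39- and 2.12-fold in clones 1 and 2. Without LacZ RNAi library C limma gave a rise of 1.44 (log2, adjusted p = 9.29e-05).

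fz (chromosome 3L, 14274343 to 14368639) encodes Frizzled, a Wnt and planar polarity receptor. It held 110.3, 112 and 69.4 in LacZ RNAi against 212, 223 and 181 in Pum RNAi, and 101, 84.4 and 103 in WT against 349, 279.8 and 387 in clone 1 and 449, 404 and 426 in clone 2. The groups did not overlap, and the rise was larger in the clones. Fitted rises of fz in the authors' deposited table were 2.07-fold after RNAi, 3.52-fold for clone 1 and 4.44-fold for clone 2, and the knockdown change lay 0.93 below the clone mean (log2 difference -0.93 ± 0.30, adjusted p = 0.00991, two-sided normal test of the difference). Its rise after RNAi was 1.05 (log2) by the authors' deposited table and 0.88 by limma without library C. dnt, of the Ryk family of Wnt receptors, held 109, 120.5 and 47.7 in LacZ RNAi and 186, 215 and 192 in Pum RNAi. It held 132, 106 and 81.1 in WT, 375, 399.96 and 447 in clone 1 and 353, 299.9 and 342 in clone 2. Its groups did not overlap either, and its difference was -0.72 ± 0.29 (adjusted p = 0.0468). In LacZ RNAi dnt was lowest in library C, and its rise of 1.04 (log2, authors' deposited table) was 0.78 by limma without it. amx, a gene needed for Notch signalling, rose 2.32-, 1.92- and 2.16-fold by the authors' deposited table, from 57.1, 52.6 and 28.2 to 116, 127 and 91.2 after RNAi. numb, an inhibitor of Notch in asymmetric division, rose 1.72-fold after RNAi and 1.96- and 2.32-fold in the clones in the authors' deposited table. Its 3 Pum RNAi libraries held 421, 429 and 423 against 302, 249 and 178 in LacZ RNAi. By limma without library C the rises of amx and numb were 1.00 and 0.63 (log2), beside 1.21 and 0.78 in the authors' deposited table.

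Of the 17 joined genes of the Notch and Wnt list, 3 rose (bib, fz and amx) and 0 fell after RNAi, beside 0.685% and 0.291% of genes tested. In both clones 8 (47.1%) rose and 2 (11.8%) fell, beside 26.3% and 23.3% of all joined genes. All 3 that rose after RNAi rose in both clones. Limma without LacZ RNAi library C called 3 higher and 4 lower of the 17 after RNAi. Of all resolved genes it called 6.87% higher and 8.79% lower. The list was chosen with earlier results of these data known, so these counts lend no separate support. The list's median log2 ratio was 0.08 in the knockdown, -0.11 without LacZ RNAi library C, and 0.32 in the clone mean, against -0.04, -0.0029 and 0.04 over all joined genes. N, the Notch receptor, rose in both clones and had a log2 ratio of -0.02 in the knockdown, and the difference was called. mam, the Notch coactivator, rose in both clones (log2 0.69 ± 0.08 and 0.93 ± 0.08 in the authors' deposited table) and stood at 0.45 ± 0.22 after RNAi, with no call for the knockdown or for the difference.

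The other shared rises took in a regulator of sphingolipid synthesis, a kinase and a BMP receptor. ORMDL (chromosome 3L, 21635305 to 21636251) encodes a regulator of serine palmitoyltransferase, the enzyme that starts sphingolipid synthesis. It held 85.7, 108 and 56.4 in LacZ RNAi, 188, 197 and 208 in Pum RNAi, 157, 144 and 142 in WT, 338, 335 and 349 in clone 1 and 357, 383 and 344 in clone 2. The depleted libraries lay above their controls throughout. The 3 rises of ORMDL in the authors' deposited table were close in size, 2.31-, 2.30- and 2.45-fold, and the difference between knockdown and clone mean was -0.04 ± 0.28 (adjusted p = 0.94). Without library C limma gave ORMDL a rise of 1.03 after RNAi, against 1.21 in the authors' deposited table (log2). Raf, the MAP kinase kinase kinase below Ras, rose 1.59-, 1.60- and 1.66-fold by the authors' deposited table, with 229.5, 205 and 256 in LacZ RNAi and 369.9, 348 and 369 in Pum RNAi. tkv, the type I receptor for the BMP ligand Dpp, rose 1.65-, 2.00- and 1.58-fold by the authors' deposited table. A difference between knockdown and clones was not called for Raf (-0.04 ± 0.20) or tkv (-0.11 ± 0.24), and these intervals allow differences of either sign. By limma without library C the log2 rises after RNAi were 0.74 for Raf and 0.57 for tkv.

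Other shared rises ran from the smallest, Cdc7, the kinase of replication origins (log2 0.44 ± 0.10 after RNAi, 0.34 ± 0.10 and 0.51 ± 0.10 in the clones), to the numbered gene CG43759 (1.27 ± 0.30, 1.20 ± 0.16 and 3.56 ± 0.15), in the authors' deposited table. They held the chloride channel gene Best2, the transporter gene MFS16, the glycosyltransferase gene alpha4GT1, the glutaminyl cyclase gene isoQC, the importin gene Kap-alpha1, the glycerol-3-phosphate dehydrogenase gene Gpdh1, the juvenile hormone epoxide hydrolase gene Jheh2, papi, a Tudor protein of piRNA maturation, and 2 further numbered genes, CG4281 and CG17119. tutl, an immunoglobulin-family membrane protein, rose from 567, 517 and 477 to 964, 974 and 968 after RNAi. In the knockout it rose from 743, 881 and 769 to 2926, 2803 and 2739 in clone 1 and 2845, 2777 and 2677 in clone 2. The rise of tutl was larger in the clones (difference -0.91 ± 0.23, adjusted p = 0.000812), and after RNAi it was 0.84 (log2) by limma without library C.

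The 11 shared falls were led by pum and Men. Men (chromosome 3R, 12713103 to 12722442), malic enzyme, which makes pyruvate and NADPH from malate, held 2088, 2151 and 3104 in LacZ RNAi and 775, 689 and 825 in Pum RNAi. It held 6905, 6468 and 6989 in WT, 1878, 1857 and 1950.2 in clone 1 and 3598, 3789.6 and 3822 in clone 2. Every depleted library lay below every control library. Its falls in the authors' deposited table were 3.20-fold (log2 -1.68 ± 0.22, adjusted p = 1.7e-10), 3.58-fold and 1.82-fold. The fitted falls of Men and pum were smallest in clone 2, as were those of Usp47, GlyP, zip and lncRNA:CR44138. Those of Msp300, PyK, Pcyt1, Pax and Muc14A were not. The clones share the WT libraries. Without LacZ RNAi library C limma gave Men a fall after RNAi of -1.48 (log2, adjusted p = 7.3e-08). Usp47, a ubiquitin-specific protease, fell by a small and even amount: from 2756, 2681 and 2822 to 2071, 2039 and 2087 after RNAi, and from 4797, 5433 and 4726 to 3572, 3428 and 3663 in clone 1 and 3932, 3992 and 3903 in clone 2. Its fitted log2 values in the authors' deposited table were -0.41 ± 0.08, -0.49 ± 0.07 and -0.34 ± 0.07, and its change after RNAi was -0.40 by limma without library C.

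Enzymes of carbohydrate and phospholipid metabolism were among the other falls. PyK, pyruvate kinase, went from 1985, 1899.9 and 2104 to 1537, 1497 and 1432 after RNAi, and from 4102, 4234 and 4444 to 2181, 2017 and 2189 in clone 1 and 2869.9, 2989 and 2839 in clone 2. GlyP, glycogen phosphorylase, fell 1.25-fold after RNAi and 1.31- and 1.12-fold in the clones in the authors' deposited table. Pcyt1, an enzyme of phosphatidylcholine synthesis, fell 1.56-fold after RNAi and 2.49- and 2.52-fold in the clones in the authors' deposited table. The fall was larger in the clones for PyK (difference 0.36 ± 0.11, adjusted p = 0.0113), Pcyt1 (0.68 ± 0.19, adjusted p = 0.00324) and Pax, the focal adhesion adaptor paxillin (0.42 ± 0.11, adjusted p = 0.00119). Msp300, a nesprin of the cytoskeleton, and zip, the heavy chain of non-muscle myosin, also fell, at levels too high to resolve by library. The log2 values of Msp300 in the authors' deposited table were -1.17 ± 0.31 after RNAi and -0.80 ± 0.10 and -1.04 ± 0.10 in the clones. Those of zip were -0.37 ± 0.10, -0.74 ± 0.10 and -0.36 ± 0.10 in the authors' deposited table. The remaining shared fall was that of the noncoding RNA lncRNA:CR44138, from 105, 103 and 210.4 to 52.3, 44.3 and 68.8 after RNAi. The log2 changes after RNAi by limma without library C were -0.38 for PyK, -0.30 for GlyP, -0.46 for Pcyt1, -0.42 for Pax and -0.93 for lncRNA:CR44138, the last beside -1.32 in the authors' deposited table.

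Muc14A, a mucin, had the most unequal fall of the shared genes. It held 3075, 2113 and 4428 in LacZ RNAi and 1593, 1547 and 1742 in Pum RNAi. It held 2135, 2523 and 1906 in WT, 32.7, 19.8 and 25.6 in clone 1 and 718, 653 and 697 in clone 2. The groups did not overlap, and clone 1 lay far below clone 2. Its fall was 1.97-fold after RNAi, 83.3-fold for clone 1 and 3.18-fold for clone 2 by the authors' deposited table. LacZ RNAi library C was its highest, and its change after RNAi was -0.98 (log2) in the authors' deposited table and -0.65 by limma without that library. Of the 32 shared genes the change differed between knockdown and clone mean in 8, which were dnt, fz, tutl, CG43759, Muc14A, Pcyt1, Pax and PyK, and in all 8 the mean change of both clones was larger. For CG43759 this rested on clone 2 (log2 3.56 ± 0.15), since its rise in clone 1 (log2 1.20 ± 0.16) was close to that after RNAi (1.27 ± 0.30) in the authors' deposited table. In the remaining 24 the difference was not called, which does not show equal changes.

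**Figure D3:**
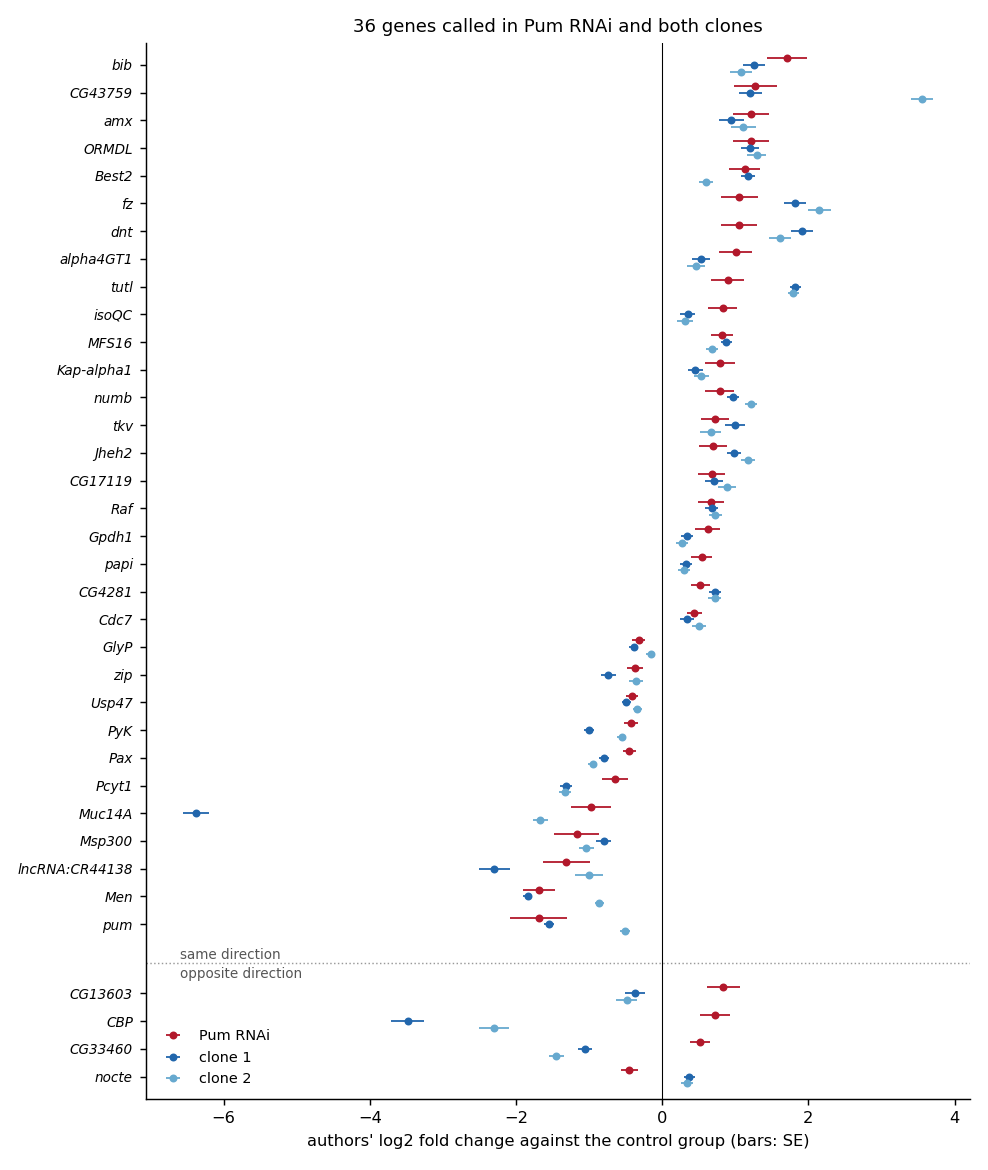
Points give the authors' fitted log2 fold change in Pum RNAi (red), clone 1 (dark blue) and clone 2 (light blue), with bars of 1 SE, for the 32 genes called in both experiments in the same direction (top) and the 4 called in opposite directions (bottom). Muc14A in clone 1 and CG43759 in clone 2 lie far from the other values of their rows, and CBP rose after RNAi while it fell in both clones.

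The 4 genes called in opposite directions all differed between knockdown and clones, which calls of opposite sign largely fix in advance. CBP (chromosome X, 7337352 to 7342731), a sarcoplasmic calcium-binding protein, held 152, 166 and 126 in LacZ RNAi and 246, 233 and 261 in Pum RNAi. It held 258, 250.0 and 242 in WT, 25.3, 18.2 and 23.4 in clone 1 and 63.2, 55.5 and 31.5 in clone 2. Pum RNAi thus lay above its control in every library and both clones below theirs. CBP rose 1.65-fold after RNAi (adjusted p = 0.0479) and fell 11.2- and 4.94-fold in the clones in the authors' deposited table, and the difference was 3.62 ± 0.30 (adjusted p = 5.14e-32). Without LacZ RNAi library C its change after RNAi was 0.63 (log2, limma, adjusted p = 0.00205). The numbered genes CG33460 and CG13603 also rose after RNAi and fell in both clones, with differences of 1.77 ± 0.17 and 1.27 ± 0.27. nocte, a gene of temperature entrainment of the circadian clock, fell after RNAi (log2 -0.45 ± 0.12, adjusted p = 0.0285) and rose in the clones (0.37 ± 0.08 and 0.34 ± 0.08) in the authors' deposited table. It could not be resolved by library, so its change was not fitted without LacZ RNAi library C.

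Of the 21 genes called after RNAi and not in both clones, 16 rose and 5 fell. The difference itself was called in 17 of them (27.1% of all joined genes had a called difference) and not in Sec3, Sirup, Hexo2 and Msr-110. Choosing genes by a call in 1 experiment and not in the other favours a called difference. In the knockout 10 of the 21 were called in neither clone, 10 in 1 clone (5 in the direction of the knockdown and 5 in the other) and 1 in both clones in opposite directions. Cand1 (chromosome 2L, 10358134 to 10362707), a regulator of cullin ubiquitin ligases, held 842, 926 and 991 in LacZ RNAi against 451, 518 and 501 in Pum RNAi. It held 978, 1031 and 994 in WT, 948, 965 and 981 in clone 1 and 1076, 1121 and 1057 in clone 2. Pum RNAi lay below LacZ RNAi in every library, with a fitted fall of 1.87-fold (log2 -0.91 ± 0.14, adjusted p = 6e-07) beside -0.05 ± 0.07 and 0.12 ± 0.07 in the clones in the authors' deposited table, and a difference of -0.94 ± 0.16 (adjusted p = 1.04e-07). Without library C limma gave Cand1 a change of -0.85 (log2) after RNAi.

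Falls after RNAi were also seen for LeuRS, which charges tRNA with leucine, and Sf3b1, of the spliceosome. LeuRS went from 549, 532 and 738 to 362, 364 and 349, and Sf3b1 from 634, 591 and 855 to 431, 421 and 409. LacZ RNAi library C was the highest for both, and their log2 changes of -0.75 and -0.72 in the authors' deposited table were -0.59 and -0.54 by limma without it. In the clones LeuRS stood at -0.18 ± 0.09 and -0.16 ± 0.09 and Sf3b1 at 0.06 ± 0.09 and 0.08 ± 0.09 (log2, authors' deposited table), with no call. sle, a nuclear protein gene, fell after RNAi (-0.45 ± 0.12) and rose in clone 1 (0.33 ± 0.07) in the authors' deposited table.

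RnrS, the ribonucleotide reductase subunit that holds the radical, had the smallest adjusted p among the rises of this class. It held 497, 439 and 343 in LacZ RNAi, 993, 1084 and 912 in Pum RNAi, 972, 799 and 901 in WT, 963, 871 and 1067 in clone 1 and 1445, 1408 and 1380.2 in clone 2. Pum RNAi and clone 2 lay above their controls, and clone 1 overlapped WT. RnrS rose 2.32-fold after RNAi (log2 1.22 ± 0.19, adjusted p = 6e-07) and 1.58-fold in clone 2, per the authors' deposited table, and the difference from the clone mean was 0.83 ± 0.21 (adjusted p = 0.000992). MP1, a protease of the melanization cascade, went from 63.05, 47.1 and 28.2 to 111, 115 and 117 after RNAi and had fitted log2 values of -0.26 ± 0.17 and 0.21 ± 0.17 in the clones in the authors' deposited table. Snap25, a SNARE protein of vesicle fusion, rose from 159.6, 134 and 152 to 249.7, 238 and 217 after RNAi. In the knockout it fell from 241, 279.6 and 267 to 131, 118 and 146 in clone 1 and held 269, 286 and 274 in clone 2, which overlapped WT. The log2 rises after RNAi by limma without library C were 1.09 for RnrS, 1.05 for MP1 and 0.68 for Snap25, beside 1.22, 1.26 and 0.67 in the authors' deposited table.

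The other named rises with a called difference were of membrane, secretory and peroxisomal genes. They were the leucine-rich repeat gene Gp150, the UDP-galactose transporter gene Ugalt, the tetraspanin genes Tsp3A and Tsp66E, Phm, an enzyme of peptide amidation, and Pex13, of peroxisomal protein import. Their log2 differences from the clone mean ran from 0.55 for Phm and Pex13 to 1.09 for Gp150, which could not be resolved by library. Ugalt rose 2.11-fold after RNAi, from 118, 138 and 69.4 to 227, 248 and 223, and 1.36-fold in clone 2, per the authors' deposited table. By limma without library C its log2 rise after RNAi was 0.86. No difference was called for Hexo2, a hexosaminidase, which rose 1.70-fold after RNAi and 1.43-fold in clone 2, per the authors' deposited table. The same held for Sirup, an assembly factor of succinate dehydrogenase, with a rise of 1.95-fold after RNAi and uncalled values of 1.33- and 1.26-fold in the clones in the authors' deposited table. Sec3, an exocyst subunit, fell 1.51-fold after RNAi in the authors' deposited table. Msr-110 rose after RNAi (log2 0.60 ± 0.17) and in clone 2 (0.59 ± 0.07) and fell in clone 1 (-0.17 ± 0.07) in the authors' deposited table. The numbered genes CG18622, CG3703, CG7841 and CG3770 also rose, and CG3703 fell in clone 1. CG3703 went from 58.1, 59.1 and 54.2 to 128, 121 and 113 after RNAi and from 127, 97.6 and 121 to 80.6, 58.5 and 70.3 in clone 1.

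The 53 resolved genes called after RNAi all kept their direction when limma was run without LacZ RNAi library C, and the change was smaller in 45 and larger in 8 than by limma with all libraries. The median shift in size was -0.12 (log2), from -0.58 for CG43759 to 0.21 for CG7841. These genes were chosen by a test on the same libraries, so the separation of Pum RNAi from LacZ RNAi in them was not counted, and over all resolved genes 23.3% had no overlap. In clone 1 42 of the 53 did not overlap WT and in clone 2 43, beside 69.7% and 69.2% of all resolved genes.

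**Figure D4:**
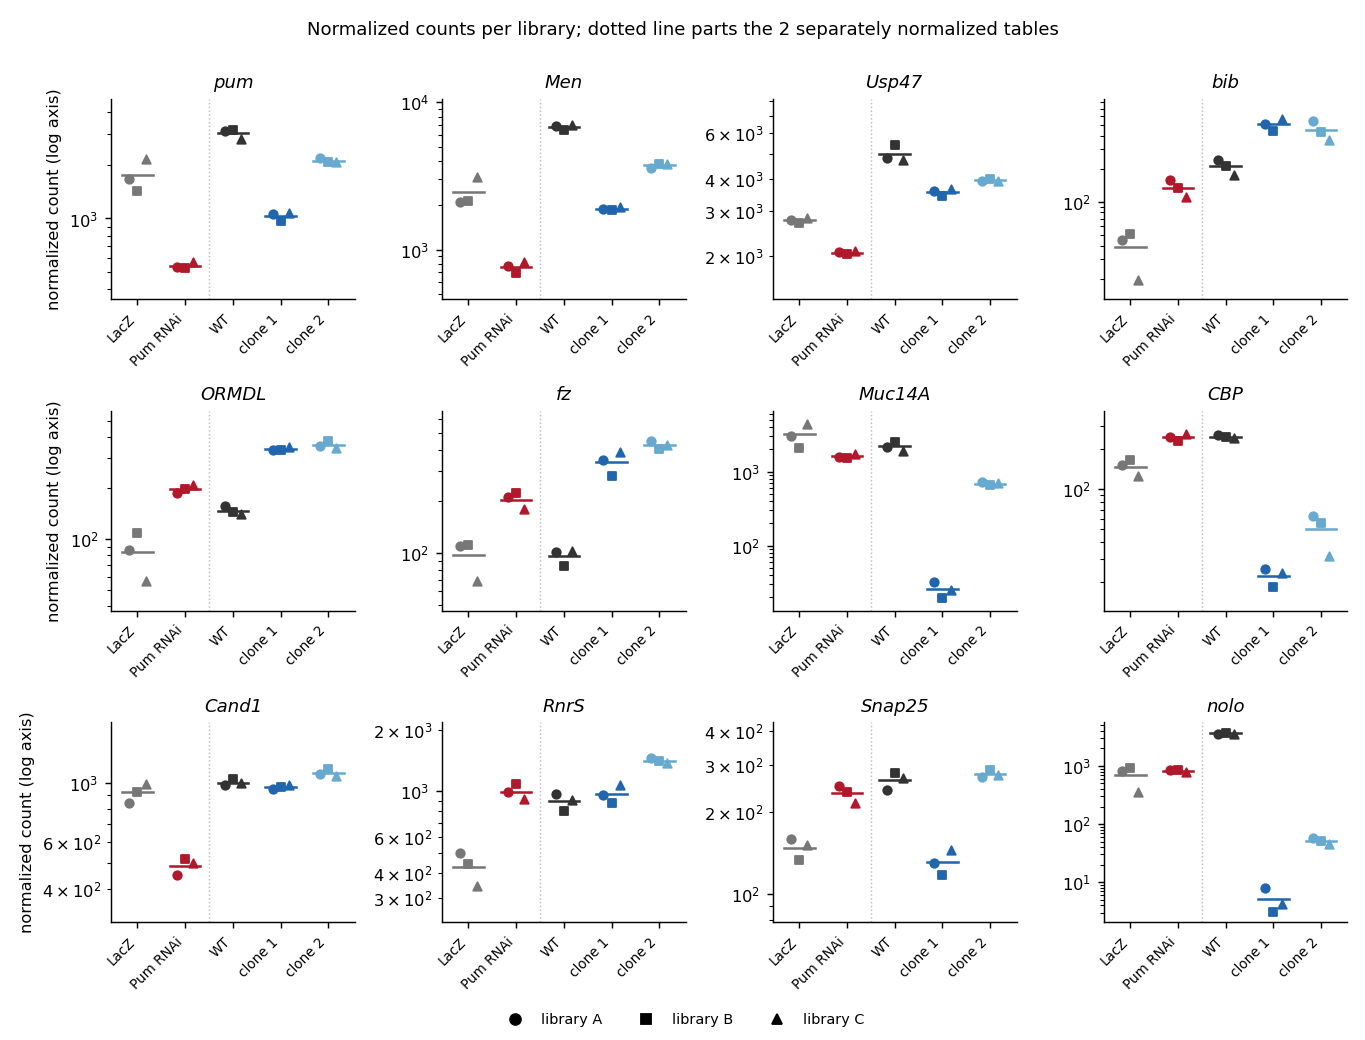
Points are normalized counts in single libraries (A, B and C by marker) on a log axis for 12 genes, with bars at group means and a dotted line between the separately normalized tables. pum, Men and Usp47 are low in every depleted library, bib, ORMDL and fz high, Muc14A drops furthest in clone 1, CBP moves in opposite directions, Cand1 is low in Pum RNAi while clone 1 overlaps WT, and nolo drops in the clones while Pum RNAi overlaps LacZ RNAi.

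The largest class of moved genes was called in both clones and not after RNAi, with 2870 genes, 1520 higher and 1350 lower. The change differed from that of the knockdown in 1390 of them (48.4%), which the choice of genes by these calls favours. In the other 1480 the difference was not called. Of all 5852 genes the difference was called in 1587, with the knockdown value above the clone mean in 777 (13.3%) and below it in 810 (13.8%). nolo (chromosome 2L, 21684106 to 21729051), an ADAMTS-like gene of the extracellular matrix, had the largest fall among the named genes with a called difference. It held 3547, 3748 and 3568 in WT, 7.998, 3.04 and 4.26 in clone 1 and 58.5, 51.6 and 46.2 in clone 2. After RNAi it held 860.0, 849 and 787 against 819.6, 911 and 351 in LacZ RNAi, which overlap. By the authors' deposited table nolo fell 681-fold (clone 1) and 69.1-fold (clone 2), and the difference from the knockdown was 8.02 ± 0.37.

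Other genes with large falls in the clones had no call after RNAi by the authors' test. Rbp, the RIM-binding protein of synaptic active zones, held 403, 428 and 426 in WT, 5.33, 3.802 and 6.39 in clone 1 and 7.43, 6.82 and 5.63 in clone 2. It held 739, 725 and 675 after RNAi within the 665 to 1213 of LacZ RNAi. Itgbn, the beta-nu integrin subunit, fell 45.4- and 47.5-fold in the clones, tsh, a zinc finger transcription factor of trunk identity, 126- and 9.02-fold, and stj, the alpha2delta subunit of calcium channels, 23.0- and 16.2-fold in the authors' deposited table. Their fitted log2 values after RNAi were 0.16 ± 0.32, -0.37 ± 0.13 and 0.39 ± 0.28 in the authors' deposited table, with no call. Limma without LacZ RNAi library C called tsh lower after RNAi (log2 -0.41, adjusted p = 0.00429) and did not call the others. Without that library the values of nolo (-0.06), Rbp (0.07) and Itgbn (-0.14) had the opposite sign, with no call in either fit.

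The largest rises among the named genes of this class with a called difference took in junction, muscle, germline and adhesion genes. bbg, a PDZ protein of epithelial junctions, went from 497, 429.9 and 475 in WT to 3767, 4035 and 4158 in clone 1 and 3272, 3421 and 3373 in clone 2. After RNAi it held 531, 479 and 507, above the 412, 439 and 210.4 of LacZ RNAi in every library, with a fitted log2 of 0.50 ± 0.26 (adjusted p = 0.559) per the authors' deposited table. Unc-89, the obscurin of muscle, rose 7.52- and 5.03-fold in the clones in the authors' deposited table and held 148, 150.2 and 193 after RNAi beside 172, 208 and 82.4 in LacZ RNAi. piwi, the nuclear Argonaute of the piRNA pathway, rose 4.90- and 4.16-fold, CDase, a ceramidase, 9.44- and 4.80-fold, and rst, an immunoglobulin-family adhesion gene, 2.12- and 7.36-fold in the clones in the authors' deposited table. The changes of these genes after RNAi were not called by the authors' test, and each differed from the clone mean, which their choice required. CDase was called higher after RNAi by limma without LacZ RNAi library C (log2 0.67, adjusted p = 0.0159). In that fit bbg stood at 0.25, Unc-89 at -0.22 and piwi at 0.17, with no call.

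By size alone, 494 genes were past 1.5-fold after RNAi (8.44%), 164 higher (2.8%) and 330 lower (5.64%), and 1467 in the clone mean with both clones on 1 side (25.1%), 723 higher (12.4%) and 744 lower (12.7%). Of these, 89 were past 1.5-fold in both experiments in the same direction, 36 higher and 53 lower, and 69 in opposite directions, 26 higher after RNAi and 43 lower. LacZ RNAi library C entered here: without it 63 genes lay past 1.5-fold in the same direction and 17 in opposite directions. The ribosomal protein gene RpL29 shows it, with 141, 211 and 1484 in LacZ RNAi and 153, 153 and 397 in Pum RNAi. Its log2 ratio of means was -1.39 with all libraries, while limma gave -0.75 with all libraries and 0.28 without library C. RpL39 stood at -0.82 (log2) in the authors' deposited table, and limma gave -0.04 with all libraries and 1.14 without library C. Among genes past 1.5-fold on both sides but not called after RNAi, alpha-Est7, an esterase, held 77.8, 88.7 and 88.9 in LacZ RNAi and 151, 163 and 127 in Pum RNAi. It rose in both clones and was called after RNAi by limma without library C (log2 0.81, adjusted p = 0.00222). In the opposite sense PCB, pyruvate carboxylase, held 132, 146 and 78.1 in LacZ RNAi and 210.5, 187 and 224 in Pum RNAi. It fell from 896, 861 and 838 in WT to 294, 242 and 277 in clone 1 and 289, 261 and 229.7 in clone 2, with a difference of 2.47 ± 0.25. Reg-2, Inx7, an innexin of gap junctions, and Reph lay the same way, with differences of 2.21, 2.02 and 1.96, and all 4 were called higher after RNAi by limma without library C.

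Gene lists were described by counts and medians beside those of all joined genes, of which 26.3% rose and 23.3% fell in both clones, 0.685% rose and 0.291% fell after RNAi, and 6.87% rose and 8.79% fell after RNAi by limma without LacZ RNAi library C. Glycolysis enzymes had negative medians in both experiments. Of 12, PyK fell and 0 rose after RNAi by the authors' test, and 6 fell and 0 rose in both clones (23.3% and 26.3% of all joined genes). Limma without LacZ RNAi library C called 3 lower and 0 higher of the 12 after RNAi. Medians were -0.28 (knockdown), -0.22 (without LacZ RNAi library C) and -0.41 (clone mean). Ldh, lactate dehydrogenase, fell in the clones from 2799, 2844 and 2514 to 401, 283 and 519.8 and to 878, 810.1 and 762, and held 2099, 2112 and 2072 after RNAi below 2781, 3031 and 2282 in LacZ RNAi. Ldh was called after RNAi by limma without library C (log2 -0.47, adjusted p = 0.00174) and not by the authors' test (-0.37 ± 0.14, adjusted p = 0.295). The falls of Ldh and Ald1, aldolase, were larger in the clones (differences 1.88 ± 0.25 and 0.61 ± 0.14).

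Of 31 cell cycle and DNA replication genes, 16 rose (51.6%, against 26.3% of all joined genes) and 1 fell (3.23%, against 23.3%) in both clones. RnrS was the 1 called after RNAi by the authors' test. Limma without library C called 3 higher and 4 lower of 30 resolved members, beside 6.87% and 8.79% of all resolved genes. The list's median was 0.38 in the clone mean, 0.05 in the knockdown and, over the 30 resolved members, 0.01 without library C. Cdk2, the kinase of S phase entry, rose in both clones (log2 1.70 ± 0.11 and 1.16 ± 0.11) with 0.41 ± 0.26 after RNAi, and geminin, the inhibitor of replication licensing, 0.97 ± 0.07 and 0.80 ± 0.07 with 0.26 ± 0.23, in the authors' deposited table. Both differences were called (-1.01 and -0.62), and limma without library C called geminin (log2 0.30, adjusted p = 0.0316) and not Cdk2 (0.16). Ras/MAPK genes had 8 higher (44.4%, against 26.3%) and 2 lower (11.1%, against 23.3%) of 18 in both clones and Raf higher after RNAi by the authors' test. Limma without library C called 2 higher and 1 lower of the 18 after RNAi. The clone mean median was 0.30 and the knockdown median 0.05, or -0.06 without library C. aop, the ETS repressor known as Yan, rose in the clones (1.12 ± 0.07 and 1.07 ± 0.07) and stood at 0.06 ± 0.27 after RNAi in the authors' deposited table, and that difference was called.

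**Figure D5:**
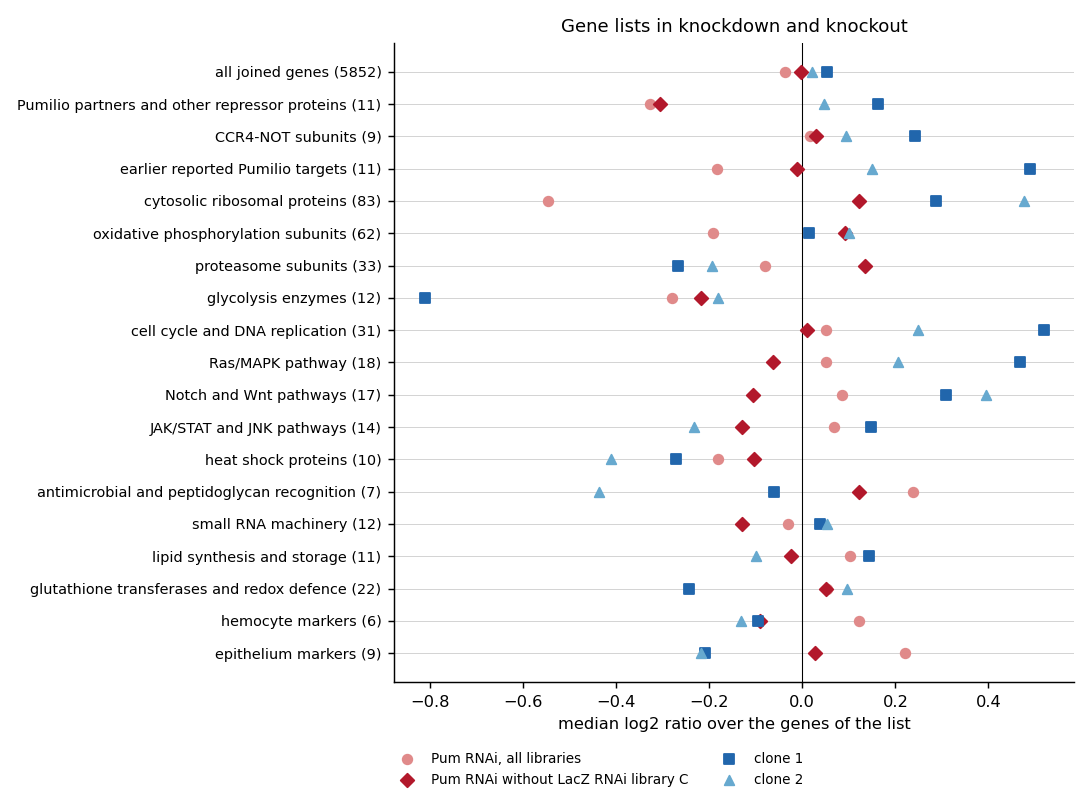
Medians of the log2 ratio over the genes of each list of 6 or more joined genes are shown for Pum RNAi with all libraries (pink), Pum RNAi without LacZ RNAi library C over the genes that could be resolved (red), clone 1 (dark blue) and clone 2 (light blue). Cytosolic ribosomal proteins cross from -0.55 to 0.12 when the library is left out, glycolysis enzymes stay at or below -0.18 in all 4, and cell cycle genes lie higher in the clones than in the knockdown.

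Of 83 cytosolic ribosomal protein genes, 55 rose (66.3%, against 26.3% of all joined genes) and 1 fell in both clones, with a clone mean median of 0.36. In the knockdown 0 were called by the authors' DESeq2 test and 0 by limma with all libraries, and the direction of the median turned with 1 library. Over the 56 resolved members it was -0.61 with all libraries and 0.12 without LacZ RNAi library C, and 41 of the 56 changed sign (73.2%, against 30.4% of all resolved genes). Limma without that library called 6 higher and 0 lower, beside 6.87% and 8.79% of all. RpS27A held 4120, 4310 and 15381 in LacZ RNAi and 4640, 4867 and 5614 in Pum RNAi, and rose in both clones. Oxidative phosphorylation subunits had 14 higher (22.6%, near the 26.3% of all joined genes) and 6 lower (9.68%, against 23.3%) of 62 in the clones, and their knockdown median likewise went from -0.19 to 0.09. After RNAi 0 of them were called by the authors' test. Limma without library C called 4 higher and 0 lower of 60 resolved subunits. Of 33 proteasome subunits 1 rose (3.03%) and 17 fell (51.5%, against 23.3%) in both clones with a median of -0.24, and had 6 higher and 0 lower in the knockdown without library C (median 0.14). Rpt6R, an ATPase paralog of the proteasome base, fell from 700.2, 862 and 752 in WT to 225, 249 and 192 in clone 1 and 274, 299 and 280.3 in clone 2, and its difference from the knockdown was called (1.60 ± 0.22).

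Of 11 joined repressor genes pum was the 1 called after RNAi, and in the clones smg (Smaug) and brat rose and pum fell. Without LacZ RNAi library C limma called 4 of 9 lower, the targeted pum among them, and 0 higher, beside 8.79% and 6.87% of all resolved genes. Of 9 CCR4-NOT subunits 0 were called after RNAi by the authors' DESeq2 test or by limma with all libraries, 1 was lower by limma without library C, and 4 rose (44.4%, against 26.3%) and 0 fell in both clones. Pop2, a deadenylase subunit, held 609, 642 and 477 in LacZ RNAi, 652, 682 and 599 in Pum RNAi, 755, 737 and 819 in WT, 1200.3, 1101 and 1125 in clone 1 and 1155, 1312 and 1188 in clone 2. It was high in both clones and overlapped its control after RNAi. twin, the other deadenylase subunit, rose in both clones (0.41 ± 0.07 and 0.32 ± 0.08) and stood at -0.29 ± 0.25 after RNAi in the authors' deposited table, with the difference called (adjusted p = 0.0468). Of 11 earlier reported Pumilio targets, Raf rose after RNAi by the authors' test (1 of 11, beside 0.685% of all genes) and 5 rose (45.5%, against 26.3%) and 0 fell in both clones. Limma without library C called 2 higher and 1 lower of the 10 resolved targets. Over all 11 the median was -0.18 in the knockdown and 0.32 in the clone mean. Over the 10 resolved targets the knockdown median was -0.10 with all libraries and -0.01 without library C. Egfr, the epidermal growth factor receptor, held 276, 273 and 93.3 in LacZ RNAi and 367, 364 and 375 in Pum RNAi and rose in both clones. Its change after RNAi was called by limma without library C (log2 0.43, adjusted p = 0.00731) and not by the authors' test (0.76 ± 0.30, adjusted p = 0.31).

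Stress, immunity, small RNA and redox genes had their calls by the authors' test in the clones. After RNAi 0 members of the JAK/STAT and JNK (14 genes), heat shock (10), antimicrobial (7), small RNA (12) and redox (22) lists were called by the authors' DESeq2 test, and 0 by limma with all libraries. Limma without library C called 1 higher and 4 lower, 0 and 1, 0 and 1, 0 and 3, and 2 and 1 of them in that order, beside 6.87% higher and 8.79% lower of all resolved genes, so that counts of 1 in these short lists lie near the shares of all genes. In both clones higher and lower members were 4 and 5, 0 and 5, 1 and 3, 1 and 4, and 1 and 7, beside 26.3% and 23.3% of all joined genes. Mmp1, a matrix metalloprotease, fell from 1238, 1205 and 1292 in WT to 253, 219.7 and 278 in clone 1 and 259, 212 and 239.8 in clone 2, and held 594, 576 and 623 after RNAi beside 676, 646 and 419 in LacZ RNAi. wgn, a receptor of the tumour necrosis factor Eiger, rose 2.04 ± 0.11 and 1.51 ± 0.11 in the clones and stood at 0.43 ± 0.21 after RNAi (log2, authors' deposited table). Both differences were called. aub, a piRNA-binding Argonaute of the germline, held 909, 818 and 941 in WT, 58.6, 39.5 and 67.1 in clone 1 and 345, 306 and 267 in clone 2. It held 87.8, 107 and 98.4 after RNAi beside 100.5, 104 and 78.1 in LacZ RNAi, which overlap. AGO3, its partner in the same pathway, fell from 941, 1075 and 1022 to 44.0, 29.7 and 57.5 in clone 1 and to 251, 237 and 185 in clone 2. Hsp23, a small heat shock protein, went from 1349, 1245 and 1219.9 in WT to 189, 186 and 194 in clone 1 and 173, 171 and 156 in clone 2. After RNAi Hsp23 held 164, 162 and 174 beside 127, 154 and 106 in LacZ RNAi, with a fitted log2 of 0.35 ± 0.23 and no call in the authors' deposited table. Lipid synthesis genes had Men lower after RNAi by the authors' test. In both clones 2 of the 11 were lower (18.2%, against 23.3% of all joined genes) and 0 higher. Limma without library C called 5 of the 11 lower and 0 higher after RNAi, beside 8.79% and 6.87% of all resolved genes.

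Markers of cell types are counted beside all joined genes, of which 49.7% were called in both clones and 0.976% after RNAi. Of the markers Msp300 was the 1 called after RNAi by the authors' test. Limma without LacZ RNAi library C called 0 of the markers that could be resolved, and Msp300 could not. Hemocyte markers had 2 higher and 3 lower of 6 in the clones, germline and gonad markers 2 and 2 of 4, the neuron marker elav rose, and epithelial markers had 2 higher and 5 lower of 9, while the muscle marker Msp300 fell in both experiments. The summed hemocyte markers were 7821 (LacZ RNAi), 8226.8 (Pum RNAi), 13182 (WT), 13460.5 (clone 1) and 22397 (clone 2) normalized counts, the last with 7704 of PPO1, a prophenoloxidase of crystal cells, which stood at 0 in WT. Summed epithelial markers were 6321, 7525.6, 11463, 19206 and 16692, muscle markers 16532, 8133, 21943, 13575 and 11742, germline and gonad markers 2646, 3506, 4413, 6899 and 5253, and neuron markers 1114, 1033.5, 1127, 1756 and 1926 in that order. A few members carry these sums. Among the epithelial markers cno and bbg rose to 7750 and 3987 in clone 1 while 5 of 9 fell in both clones. Msp300 held 6777 of the muscle sum after RNAi and Mef2 most of the rest, with Mhc and Act57B at or below 16.4 in every group. Of 16 hemocyte markers 1, 0, 1, 1 and 0 were at 0 in those groups. The part of such markers in the results was not tested.

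Features that the selection did not use were set beside the calls, as a description. The median annotated length of the 3' untranslated region was 361 bases over 5761 genes, 496 for the 21 genes raised in both and 502 for 9 of the 11 lowered in both. It was 313.5 for the 1542 genes raised and 464.5 for the 1364 lowered in both clones. In the knockdown without LacZ RNAi library C, the 504 lowered genes had a median 3' untranslated region of 606 bases and a median gene length of 5325, the 394 raised genes 289 and 1717, and all joined genes 361 and 2368. Gene length thus moved with the direction of the knockdown calls made without that library, and its part in them was not tested. By chromosome 10 of the 40 genes raised after RNAi were on X and 4 on 3R, beside 17.2% and 24.1% of all joined genes.

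The joined genes called in both clones were also looked up in the knockdowns of Not1 and Pop2, the scaffold and a deadenylase of the CCR4-NOT complex, which share no sample with the clones. By the authors' deposited tests 28.1% of the genes tested were called higher and 30.4% lower in Not1 RNAi, and 21.6% higher and 25.1% lower in Pop2 RNAi. Of the 1542 genes raised in both clones 18.2% were higher and 39.8% lower in Not1 RNAi, and 13.7% higher and 32.2% lower in Pop2 RNAi, by the authors' deposited table. Of the 1364 genes lowered in both clones 42.2% were higher and 23.7% lower in Not1 RNAi, and 33.9% higher and 20.5% lower in Pop2 RNAi, by the authors' deposited table. Both knockdowns share the LacZ RNAi libraries with Pum RNAi, library C among them.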

How the data were processed

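The authors deposited 1 table for the RNAi groups and 1 for the knockout groups, each holding group means of normalized counts (a signal per gene, scaled within its table) with log2 fold changes, standard errors and p-values for each comparison. Per the submitters' processing notes the reads passed through fastp 0.14.1, HISAT2 2.1.0, UMI-tools 1.0.1, featureCounts and DESeq2 1.23.110 on build dm6. Per the file headers and values, the deposited log2 values and p-values are those of DESeq2. No source used here gives the strand setting of the counting. Reads of overlapping, antisense or near-identical genes cannot be told apart. Lines without a gene were left out, 7 per table with 0.0448% and 0.0669% of the normalized counts.

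The tables hold means, not counts, so no count model was refitted and the deposited tests are the main ones. The means carry 15 significant digits, from which the reads of 3 libraries were solved for means up to 9999. This step and both tests were checked on made-up data with known answers. The made-up libraries for limma held none that stood apart as LacZ RNAi library C does, so that check does not cover such a library. Limma 3.58.1 (R 4.3.3) was run on log2(value + 1) of these libraries, for genes with a mean of at least 5. The other computing used Python 3.11.15, numpy 2.4.6, pandas 2.3.3, scipy 1.17.1, numba 0.67.0 and matplotlib 3.10.9. Reads cover counting error only, and depth outside resolved genes is unknown.

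The difference test divided the fitted Pum RNAi value minus the clone mean by its standard error, combined in quadrature from both tables, with the mean of both clones' standard errors as an upper bound for the clone mean. It was two-sided and normal, with Benjamini-Hochberg adjustment over all 5852 genes. Fold changes are 2 to the power of the fitted log2 value, and log2 ratios are of deposited means. In Pum RNAi 14 of the genes have no adjusted p. Per the labels the 3 samples of a group are biological replicates.

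The genes, lists and rules were chosen with earlier results of these data known. Named genes were those with a symbol other than a number: up to 8 of a class called in both experiments (all if at most 12), the 8 largest rises and falls called after RNAi and not in both clones, the 6 largest rises and falls called in both clones, 4 per pair of directions past 1.5-fold, and up to 3 per list by smallest p. The remaining genes called after RNAi, and the numbered ones beyond 1 per class, were named after their values were seen. Of 21 lists, symbols that matched no gene were Rb, Peroxin, dec and dec-1, and Rcd1 was dropped from the CCR4-NOT list as another gene. Alternatives were other minimum means, thresholds, scalings, clones taken singly, limma, and leaving out each library.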

Additional observations from a re-analysis of the deposited data

Results flagged for a closer look

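Each value below is the fitted log2 change after Pum RNAi minus the mean of both clones, and each was picked out because the test of that difference called it (adjusted p below 0.05). The test called 1587 of the 5852 joined genes. No explanation was tested for any of them, and LacZ RNAi library C enters every knockdown value.

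Among genes called in both experiments, the knockdown change was the smaller rise for dnt (-0.72), fz (-0.93), tutl (-0.91) and CG43759 (-1.11). It was the smaller fall for Muc14A (3.05), PyK (0.36), Pcyt1 (0.68) and Pax (0.42). Of genes called in opposite directions, CBP (3.62), CG33460 (1.77) and CG13603 (1.27) rose after RNAi and fell in the clones, and nocte (-0.81) did the reverse.

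Among genes called after RNAi and not in both clones, falls set apart from the clones were those of Cand1 (-0.94), Sf3b1 (-0.78), sle (-0.64) and LeuRS (-0.58). Rises set apart were those of CG3703 (1.52), MP1 (1.29), CG18622 (1.22), Snap25 (1.13), Gp150 (1.09), Tsp3A (0.91), RnrS (0.83), Ugalt (0.80), CG7841 (0.76), CG3770 (0.71), Tsp66E (0.70), Phm (0.55) and Pex13 (0.55).

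Among genes called in both clones and not after RNAi, the falls in the clones gave nolo 8.02, Rbp 5.91, Itgbn 5.69, tsh 4.71, stj 4.67, l(2)41Ab 4.50, Pka-C3 2.78, PCB 2.47, Reg-2 2.21, Inx7 2.02 and Reph 1.96. In l(2)41Ab clone 1 lay far below clone 2, with 2.67, 1.52 and 2.13 normalized counts beside 119.8, 103 and 116 and a WT of 356, 463 and 453. The rises in the clones gave bbg -2.47, Unc-89 -2.55, Fie -2.04, CDase -1.74, piwi -1.72, rst -1.63, RpL39 -2.68, RpL29 -2.64 and CNBP -1.89. For RpL29 and RpL39 the knockdown value by limma was -0.75 and -0.04 with all libraries and 0.28 and 1.14 without LacZ RNAi library C. CNBP could not be resolved by library.

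Of the gene lists, members that fell in the clones gave crb 3.69, GstO3 3.54, AGO3 3.46, PGRP-SA 3.25, Hsp23 3.19, aub 2.81, Mmp1 2.39, crq 1.91, Ldh 1.88, Rpt6R 1.60, He 1.34, Hsp68 1.31, Keap1 1.08 and Ald1 0.61. Members that rose in the clones gave RpS27A -1.37, wgn -1.35, aop -1.03, RpLP0-like -1.02, cno -1.02, Cdk2 -1.01, elav -0.85, twin -0.65, geminin -0.62 and N -0.53. Hsp68 also had a log2 of -0.70 ± 0.36 after RNAi in the authors' deposited table, with no call, and was called lower by limma without LacZ RNAi library C (-0.88, adjusted p = 0.0019).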

How the results depend on the processing

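No called direction turned over among the named genes and pum under any alternative run. The count of genes called in both clones and not after RNAi stayed within 1.5 times of 2870. Every fit with a library left out is by limma, so the tool changed with the library, and this count was 3079 by limma with all libraries and 2554 to 3079 with 1 left out. The counts that use knockdown calls did not stay. Genes called in both experiments in the same direction (32) numbered 15 at an adjusted p below 0.01, 0 by limma with all libraries and 690 by limma with library quality weights, and ran from 0 to 355 as single libraries were left out. Those called in opposite directions (4) numbered 2 at a minimum mean of 200, 0 and 14 at thresholds of 0.01 and 0.10, 8 with clone 1 alone, 0 by limma, 495 with quality weights and 0 to 170 with a library left out. Those called after RNAi and not in both clones (21) numbered 11, 9 and 33 at these minimum and threshold settings, 0 by limma, 748 with quality weights and 0 to 373 with a library left out. The upper ends, 355, 170 and 373, are all without LacZ RNAi library C. With the authors' calls of the clones kept, limma without that library gave 338, 164 and 396. By size alone, the 89 genes past 1.5-fold in the same direction became 49 at a minimum mean of 200, 410 with no minimum and 16 at 2-fold, and the 69 in opposite directions 36, 396 and 3. With a library left out these ran from 63 to 141 and from 17 to 156. The 1587 called differences became 983 at a threshold of 0.01 and 3548 with quality weights. It was 1337 by limma with all libraries and ran from 442 (without Pum RNAi library A) to 3017 (without LacZ RNAi library C) with 1 left out. The r of 0.0116 was -0.018 with clone 2 alone and ran from -0.0367 to 0.169. The fall of pum after RNAi was -1.67 (log2, adjusted p = 0.192) by limma with all libraries and ran from -1.81 to -1.50 with a library left out, beside -1.60 to -1.50 in clone 1 and -0.56 to -0.49 in clone 2. Single-gene calls after RNAi passed the threshold by limma without LacZ RNAi library C in 52 of 52 named genes. The other libraries are those of the authors' test, so this is no independent check. The calls were lost in all 52 by limma with all libraries and without any 1 of the other 5 RNAi libraries (260 checks). In the clones 1945 such checks with a library left out kept the call and 17 did not. The causes of these moves were not tested. Quality weights and the authors' calls of the clones were settings chosen after seeing the data. No paired analysis was possible because the columns carry no replicate numbers and no label ties a solved library to a sample. LacZ RNAi library C had the fewest reads in resolved genes (2395878).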

Other observations

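Some genes with a large fall in the clones stood at unequal levels in the 2 controls, untreated WT cells and LacZ RNAi cells. The genes given here were chosen after their values were seen. WT enters both the fall and this comparison, so choosing large falls favours genes that are high in WT. The tables were normalized separately, so these values are set against the median log2 ratio of WT over LacZ RNAi across the joined genes (0.55), with no test. From 5% to 95% of the joined genes, the distance from that median ran from -0.84 to 0.84. AGO3 had group means of 68.0 normalized counts in LacZ RNAi and 1013 in WT, 3.34 above that median (log2). aub held 94.2 and 889, 2.69 above it. Hsp23 held 129 and 1271, 2.74 above it, while its clones lay at -0.0013 and -0.19 from LacZ RNAi on the same footing. GstO3 held 164 and 1127 (2.23 above), Inx7 43.4 and 300.5 (2.24 above) and PCB 119 and 865 (2.31 above). On that footing clones 1 and 2 lay at -1.19 and 1.17 for AGO3, -1.33 and 1.15 for aub and -1.62 and -0.65 for GstO3. Others with large falls went the other way, with WT at -1.58 for Rbp and -1.10 for Muc14A. Further ones lay inside the range of most genes, with WT at -0.54 for Ldh, -0.37 for tsh, 0.20 for CBP and 0.26 for crb.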
